A study of Drosophila melanogaster with 10 samples.

Results

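Glutathione S transferases (GSTs) are the enzymes that join the tripeptide glutathione to reactive or foreign compounds. The 35 GST genes of the fly in the count table, of 14352 genes in all, were taken by their symbol (GstD, GstE, GstO, GstS, GstT or GstZ with a number) or by the words glutathione S transferase in their gene name. All 35 were found by symbol and 21 of them also by name. By class, 11 were Delta, 14 Epsilon, 3 Omega, 1 Sigma, 4 Theta and 2 Zeta genes, and 22 of the 35 averaged above 2 TPM in either group and so were among the 9365 genes tested.

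RNA was sequenced from the dissected ventral nerve cord (VNC, the part of the fly central nervous system in the thorax that receives the nerves of legs and wings) of adult flies of the white-eyed laboratory strain w1118. The sample labels give an age of 3 to 10 days, and the RNA-seq methods give 3 to 5 days for the injured flies. The injured group (5 libraries) had lost all 6 legs, both wings and the head 5 hr before dissection and lay ventral side up on agar in humid air, while the uninjured group (5 libraries) was intact and was kept without food in agar vials for 5 hr. Each library was a pool of VNCs from males and females, so p-values measure the spread between pools. Injured flies were cut under carbon dioxide, and those that did not move their leg stumps when touched were discarded. Neither step is described for the uninjured flies. Housing, anaesthesia, this selection and the loss of the head and appendages cannot be told apart from an answer to cut nerves. In pooled tissue, fewer cells of a type and less RNA per cell cannot be told apart either. Libraries carry the number of their column in the count table, which is not known to match the replicate names in the labels.

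GSTs work in a chain. Glutathione is made by glutamate-cysteine ligase and glutathione synthetase, GSTs attach it to oxidised lipids, insecticides and other electrophiles, and ABC transporters carry the conjugates out of the cell. In insects the Delta and Epsilon classes are expanded, lie in gene clusters and are known for insecticide metabolism and for defence against oxidative stress. Part of the family is known to be switched on by the transcription factor Cnc, which Keap1 holds back. Levels between libraries are given in CPM (counts scaled to library size after TMM), and levels between genes in TPM as deposited, which are per kilobase of transcript.

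At 5 hr after injury the family did not move as one. GstD2 rose 5.17-fold, and 4 Epsilon genes fell: GstE6 (2.37-fold), GstE2 (1.90-fold), GstE12 (1.62-fold) and GstE3 (1.58-fold). The other 17 tested members did not pass the test (edgeR, adjusted p under 0.01). By this test 13.7% of all genes were called, 7.55% higher and 6.13% lower, against 1 member higher and 4 lower of 22. Over all genes this was 707 higher and 574 lower, while upper-quartile scaling gave 579 higher and 722 lower and called the same 5 members, with GstE13 added among the lower ones. The fitted change was negative for 17 of the 22 members, and for 50.1% of all genes tested. The members' median log2 fold change was -0.19, beside -0.00 over all genes tested. GstD2 passed the filter on level only through the injured group, so these counts are a description of the members that passed it.

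**Figure D1:**
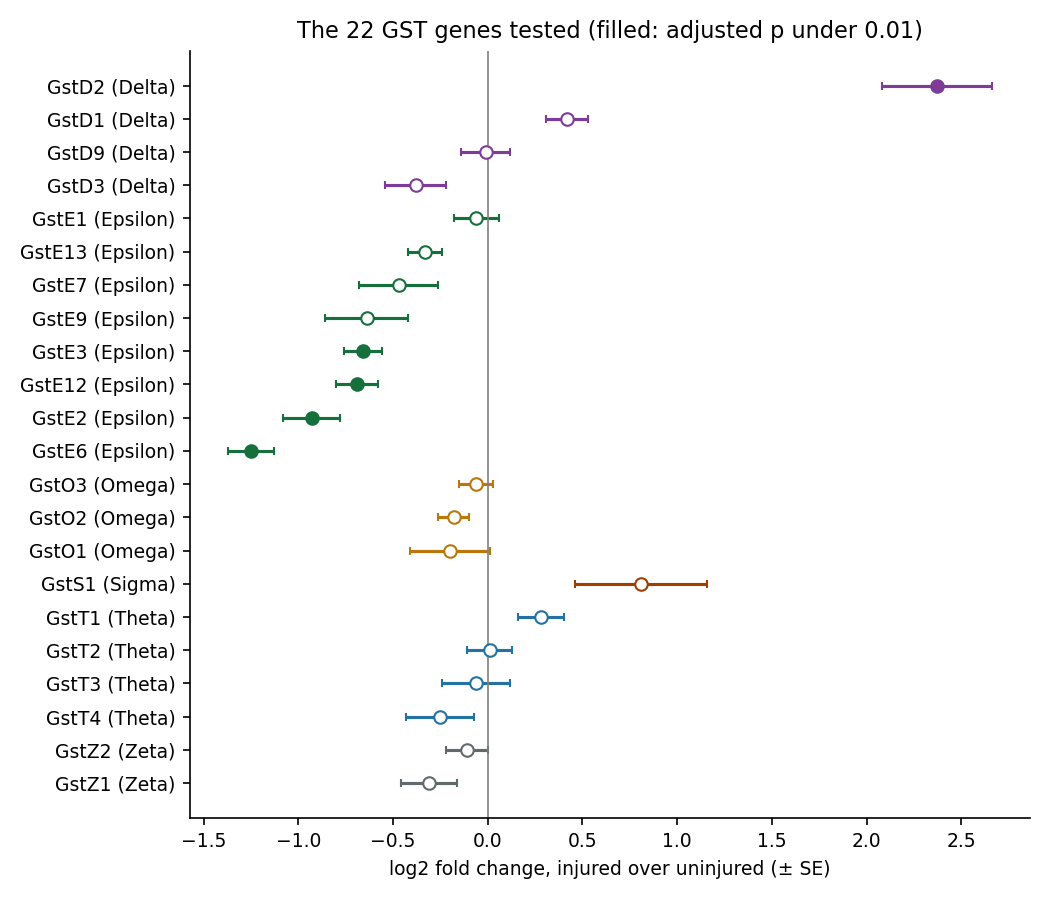
Log2 fold change of injured over uninjured VNCs (horizontal axis, points with SE bars) for the 22 GST genes tested, in rows by class, with filled points for adjusted p under 0.01. GstD2 stands at 2.37, the 8 Epsilon genes lie between -1.25 and -0.06, and the Omega, Theta and Zeta genes lie between -0.31 and 0.28.

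GstD2 (FBgn0010038, chromosome arm 3R), a Delta enzyme of the main Delta cluster, was the member that rose. It had 32, 28, 54, 42 and 48 counts in injured libraries 1 to 5, against 7, 7, 15, 5 and 6 counts in uninjured libraries 1 to 5. As levels these were 4.74, 5.40, 8.76, 7.33 and 7.93 CPM in injured libraries, against 1.19, 1.04, 2.41, 0.838 and 1.04 CPM in uninjured libraries. Every injured library lay above every uninjured library, and such a gap was found for 8.8% of all genes tested. On the log2 scale it rose by 2.37 ± 0.29 (SE, n = 5 each, edgeR adjusted p = 5.09e-05). It was one of the 2.38% of genes that were called and at least 2-fold higher. Even after injury GstD2 stayed a minor part of the family, at 6.06 ± 1.40 TPM in injured and 1.21 ± 0.575 TPM in uninjured VNCs (SD, n = 5 each).

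GstD1 (FBgn0001149), the Delta enzyme known for DDT metabolism and used in reporters of oxidative stress, had the highest level of the family in both groups, 154 ± 26.4 TPM in injured and 119.7 ± 12.2 TPM in uninjured VNCs. Its values were 215, 179, 209.5, 155 and 231 CPM in injured libraries, against 155, 149.8, 169, 129 and 137 CPM in uninjured libraries. Injured libraries 1, 2, 3 and 5 lay above every uninjured library, and injured library 4 lay among them. The log2 fold change of 0.42 ± 0.11 missed the threshold (adjusted p = 0.0116) and passed it without injured library 4 (0.50, adjusted p = 0.00196) or without uninjured library 3 (0.47, adjusted p = 0.00952). DESeq2 (adjusted p = 0.00156) and robust dispersions (adjusted p = 0.00984) also placed it past the threshold.

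GstD9 and GstD3 were the other Delta genes tested, and neither was called. GstD9, the neighbour of GstD1 and the Delta gene with the next highest level, stood at 81.8 ± 15.4 CPM in injured and 82.2 ± 11.4 CPM in uninjured VNCs, with a log2 fold change of -0.01 ± 0.13 whose sign turned when single libraries were left out. GstD3, which lies next to GstD2, stood at 16.5 ± 3.74 CPM in injured and 21.6 ± 3.24 CPM in uninjured VNCs (log2 fold change -0.38 ± 0.16, adjusted p = 0.0975). The neighbours GstD2 and GstD3 thus had fitted changes of opposite sign, and GstD2 was the less abundant of the pair per length, with GstD3 at 14.6 ± 3.76 TPM in injured and 19.7 ± 2.74 TPM in uninjured VNCs.

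**Figure D2:**
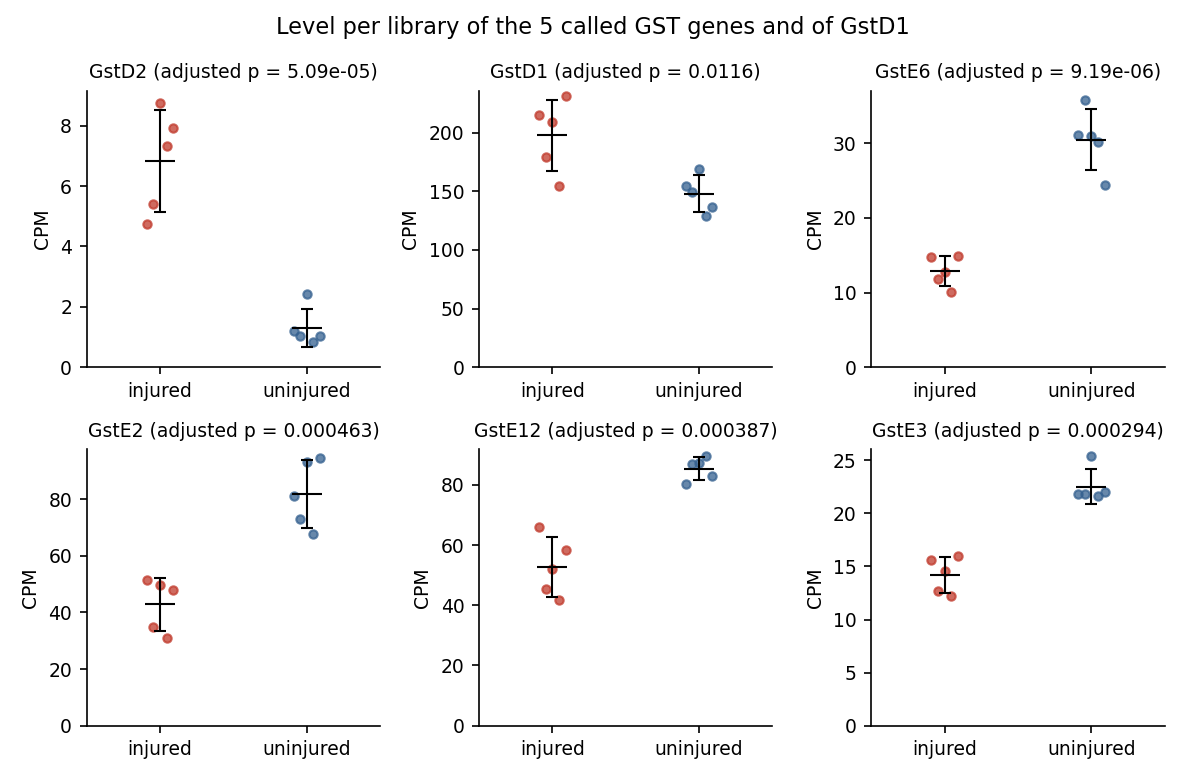
Level per library in CPM (vertical axes, each from 0) of the 5 GST genes past the threshold and of GstD1, in injured (red, left) and uninjured (blue, right) VNCs, with mean and SD in black. GstD2 lay between 4.74 and 8.76 CPM in injured and between 0.838 and 2.41 CPM in uninjured libraries, GstE6, GstE2, GstE12 and GstE3 were lower in every injured library, and GstD1 overlapped between the groups.

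In the Epsilon class, 8 genes were tested and 4 fell, where 6.13% of all genes did. All 8 fitted changes were negative, where 50.1% were over all genes tested, and the class median log2 fold change was -0.65. In 5 of the 8 genes every injured library lay below every uninjured library, which was so for 7.73% of all genes tested. Summed markers of several other cell types were lower in the same libraries, and their values follow the account of the class.

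GstE6 (FBgn0063494, arm 2R) changed most. It had 14.7, 11.8, 12.7, 10.1 and 14.9 CPM in injured libraries, against 31.1, 35.8, 31.0, 30.2 and 24.4 CPM in uninjured libraries. The lowest uninjured library was well above the highest injured one. Its fitted log2 fold change was -1.25 ± 0.12 (adjusted p = 9.19e-06), which placed it among the 2.26% of genes called and at least 2-fold lower.

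GstE2 (FBgn0063498) was the most abundant Epsilon gene, at 31.8 ± 7.88 TPM in injured and 62.6 ± 7.73 TPM in uninjured VNCs. It had 51.4, 34.7, 49.6, 31.1 and 48.1 CPM in injured libraries, against 81.0, 73.1, 93.2, 67.7 and 94.6 CPM in uninjured libraries. Within the injured group, libraries 2 and 4 stood below the other libraries. The log2 fold change was -0.93 ± 0.15 (adjusted p = 0.000463).

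GstE12 (FBgn0027590), which lies on 2R away from the main Epsilon cluster, followed at 26.5 ± 5.93 TPM in injured and 44.4 ± 2.69 TPM in uninjured VNCs. It had 66.1, 45.5, 51.9, 41.7 and 58.3 CPM in injured libraries, against 80.3, 87.0, 87.2, 89.5 and 82.8 CPM in uninjured libraries. The groups did not overlap. The spread was wider after injury, with a coefficient of variation of 18.6% in injured and 4.33% in uninjured libraries. Its log2 fold change was -0.69 ± 0.11 (adjusted p = 0.000387).

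GstE3 (FBgn0063497), the neighbour of GstE2, had 15.6, 12.7, 14.6, 12.2 and 16.0 CPM in injured libraries, against 21.8, 21.8, 25.4, 21.6 and 22.0 CPM in uninjured libraries. Uninjured library 3 was high, the other uninjured libraries were nearly equal, and all lay above the injured ones. In log2 terms the change was -0.66 ± 0.10 (adjusted p = 0.000294).

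The Epsilon genes that did not pass the test ranged widely. GstE13, which also lies apart from the cluster, had 19.0, 17.4, 18.3, 16.9 and 15.4 CPM in injured libraries, against 22.8, 20.1, 20.2, 21.4 and 25.0 CPM in uninjured libraries. Its groups did not overlap, but the log2 fold change of -0.33 ± 0.09 had an adjusted p of 0.0192. GstE9 stood at 10.7 ± 3.34 CPM in injured and 16.5 ± 4.43 CPM in uninjured VNCs (-0.64 ± 0.22, adjusted p = 0.0538). GstE7 stood at 5.72 ± 1.33 CPM in injured and 7.91 ± 1.88 CPM in uninjured VNCs (-0.47 ± 0.21, adjusted p = 0.131), and for both genes the groups overlapped.

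GstE1 differed little between the groups, at 17.4 ± 2.15 CPM in injured and 18.2 ± 2.43 CPM in uninjured VNCs (log2 fold change -0.06 ± 0.12, adjusted p = 0.756). It lies directly beside GstE2. In the order of a later annotation, GstE10, GstE1, GstE2 and GstE3 follow each other with no other gene between them, 2 other genes come next, and GstE4 to GstE9 complete the cluster. Along it, the fitted changes of the tested genes were -0.06 for GstE1, -0.93 for GstE2, -0.66 for GstE3, -1.25 for GstE6, -0.47 for GstE7 and -0.64 for GstE9. Whether reads shared by near-identical neighbours were counted once, split or dropped is not given in the sources used here, so the values of clustered genes are uncertain to that extent.

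**Figure D3:**
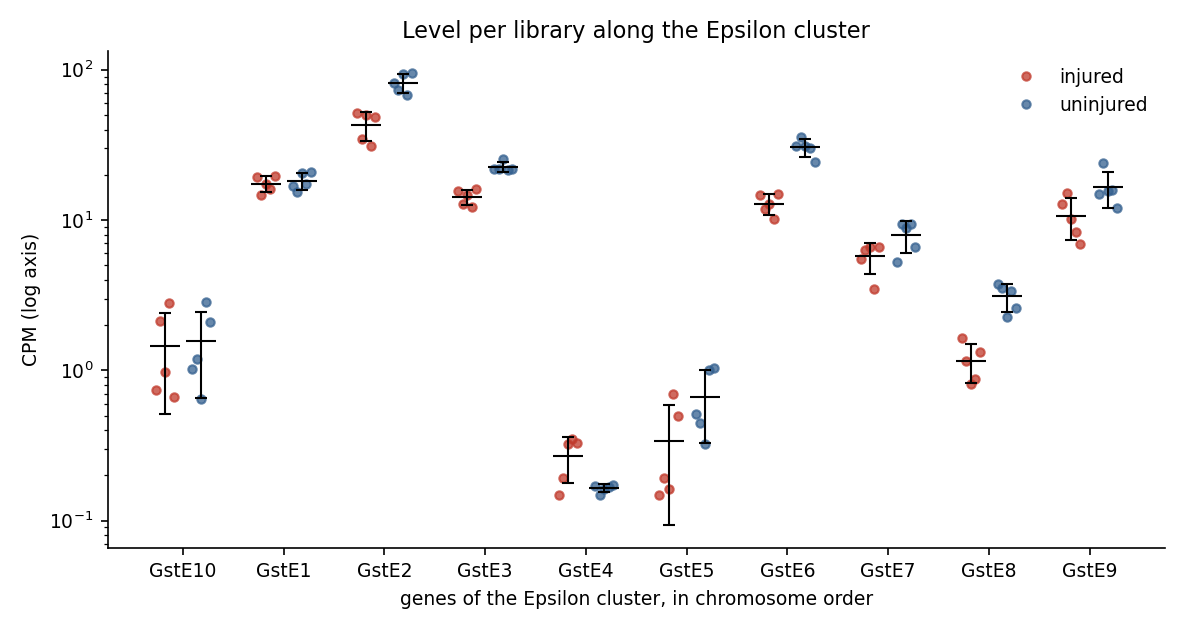
Level per library in CPM (vertical log axis) for the 10 genes of the Epsilon cluster, in chromosome order on the horizontal axis, in injured (red, left of each pair) and uninjured (blue, right of each pair) VNCs, with mean and SD in black. GstE2, GstE3 and GstE6 separate fully, GstE1 overlaps, and GstE4, GstE5, GstE8 and GstE10 lie below the filter of 2 TPM.

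The summed markers of several cell types were also lower in the injured libraries. Over all genes tested, 7.55% were called higher and 6.13% lower, the shares to set beside the count of each marker list. The fat body list summed to 5067 to 6840 CPM in injured and 7722 to 12900 CPM in uninjured libraries, but its genes did not move together. Of 14 tested, 3 were lower (the lipoprotein gene apolpp, the yolk protein gene Yp3 and the desaturase gene Desat1), 6 fitted changes were positive and 8 negative, and the median log2 fold change was -0.05. DESeq2 called 1 higher and 4 lower. The hemocyte list (5 lower of 8 tested) summed to 606 to 725 CPM in injured and 811 to 1220 CPM in uninjured libraries. These are organs and blood cells outside the nerve cord, and their part in the Epsilon values was not tested.

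The gut list (9 lower of 14 tested) summed to 107 to 195 CPM in injured and 217 to 1689 CPM in uninjured libraries, with LysB, LysD, LysE, LysX and Npc2d averaging under 1 CPM in both groups. Uninjured library 2 alone gave the sum of 1689 CPM, and the other uninjured libraries gave 217 to 484 CPM. Of the genes called lower, Jon25Biii averaged 0.403 CPM in injured and 10.1 CPM in uninjured VNCs, and epsilonTry 0.570 and 5.34 CPM. Genes so low after injury pass the filter on level only through the uninjured group, so the gut count is a description of the genes that passed it. Glia, the support cells of the VNC, gave 1 marker higher and 4 lower of 11, with sums of 5608 to 8895 CPM in injured and 7395 to 10436 CPM in uninjured libraries. Neuron markers gave no call among 9 with edgeR or DESeq2 (1 at an unadjusted p under 0.05) and sums of 18828 to 23690 CPM in injured and 18379 to 23726 CPM in uninjured libraries. The 4 Hox genes of the thoracic and abdominal segments (0 at an unadjusted p under 0.05) likewise gave no call with either tool. Oenocyte and cuticle markers (1 lower of 5 tested) summed to 112 to 841 CPM in injured and 205 to 1018 CPM in uninjured libraries, and the trachea list, with 2 genes tested and 0 at an unadjusted p under 0.05, to 41.5 to 62.5 CPM in injured and 51.1 to 60.8 CPM in uninjured libraries. The part of these cells in the GST values was not tested either.

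GstS1 (FBgn0010226, 2R) is the only Sigma gene of the fly, an enzyme known for conjugating the lipid peroxidation product 4-hydroxynonenal and for its abundance in flight muscle. It had 49.4, 63.3, 28.5, 145 and 119.9 CPM in injured libraries, against 48.0, 42.8, 39.7, 43.1 and 58.7 CPM in uninjured libraries. Injured libraries 4 and 5 were far above all others, and injured library 3 was the lowest of the 10. The coefficient of variation was 60.6% in injured and 16.1% in uninjured libraries. The log2 fold change of 0.81 ± 0.35 did not pass the test (adjusted p = 0.115), and it was 0.49 without injured library 4 and 1.01 without injured library 3, with no fit past the threshold.

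Muscle RNA varied over the same libraries. The muscle list (no call among 18 tested with edgeR or DESeq2, 5 at an unadjusted p under 0.05) summed to 3555, 5192, 1178, 9160 and 4495 CPM in injured libraries, against 2497, 4060, 3409, 3267 and 2442 CPM in uninjured libraries. Injured library 4 was highest and injured library 3 lowest in both GstS1 and the muscle sum, while injured library 5 was high in GstS1 and below injured library 2 in the muscle sum. The part of muscle RNA in the GstS1 values was not tested.

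**Figure D4:**
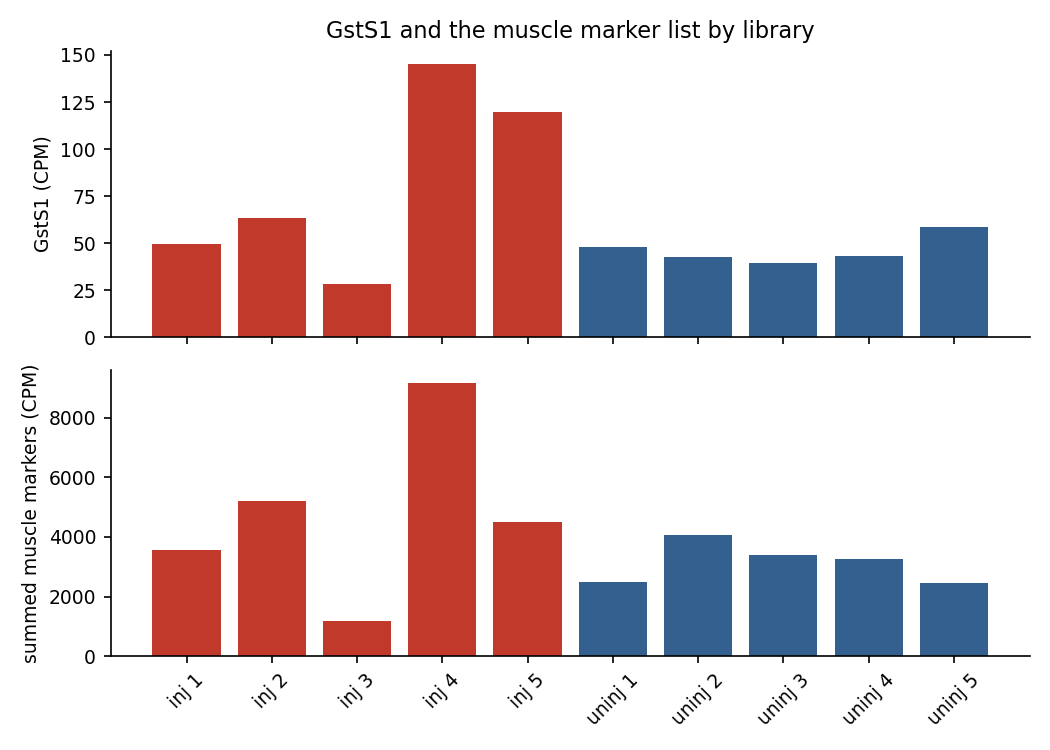
GstS1 (upper panel) and the summed muscle markers (lower panel) in CPM on vertical axes from 0, 1 bar per library, with injured libraries in red at the left and uninjured libraries in blue at the right. Injured library 4 has the tallest bar and injured library 3 the shortest bar in both panels, at 145 and 28.5 CPM for GstS1.

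The Omega, Theta and Zeta classes gave no calls with edgeR or DESeq2. At an unadjusted p under 0.05 there were 1 of 3 Omega, 1 of 4 Theta and 0 of 2 Zeta genes. The Omega genes, whose enzymes act as thiol transferases and dehydroascorbate reductases, all had negative fitted changes: -0.20 ± 0.21 for GstO1, -0.18 ± 0.08 for GstO2 and -0.06 ± 0.09 for GstO3. GstO2 was the Omega gene with the highest level, with 20.3, 17.9, 21.2, 18.3 and 17.8 CPM in injured libraries, against 22.5, 22.6, 20.1, 21.3 and 22.0 CPM in uninjured libraries (adjusted p = 0.127). Injured libraries 2, 4 and 5 lay below every uninjured library, and injured libraries 1 and 3 lay among them.

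The Theta genes, a class known in vertebrates for acting on small halogenated compounds, were led by GstT1 per length in injured VNCs only. There GstT1 averaged 14.6 TPM and GstT2 12.6 TPM, while in uninjured VNCs they averaged 12.5 and 13.0 TPM. GstT1 had 23.7, 23.0, 16.9, 25.8 and 21.6 CPM in injured libraries, against 16.8, 21.8, 18.5, 15.7 and 18.7 CPM in uninjured libraries (log2 fold change 0.28 ± 0.12, adjusted p = 0.124). Injured library 3 was low and the groups overlapped. GstT4 had a log2 fold change of -0.25 ± 0.18. GstT2 (0.01 ± 0.12), which lies directly beside GstT1, and GstT3 (-0.06 ± 0.18) had changes near 0 whose sign turned in some alternatives, GstT2 also under each other scaling of the counts.

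The Zeta genes, which encode the maleylacetoacetate isomerase of tyrosine breakdown, lie side by side on 3R. GstZ1, the Zeta gene with the higher level per length (5.61 ± 0.957 TPM in injured and 7.24 ± 0.796 TPM in uninjured VNCs), had 6.52, 9.07, 6.00, 9.60 and 8.09 CPM in injured libraries, against 8.34, 10.7, 10.9, 8.88 and 9.70 CPM in uninjured libraries. Its groups overlapped (log2 fold change -0.31 ± 0.15, adjusted p = 0.162). GstZ2 stood at 18.3 ± 1.21 CPM in injured and 19.7 ± 2.82 CPM in uninjured VNCs (-0.11 ± 0.11, adjusted p = 0.488).

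The 13 members below the filter were GstD4, GstD5, GstD6, GstD7, GstD8, GstD10 and GstD11 among the Delta genes and GstE4, GstE5, GstE8, GstE10, GstE11 and GstE14 among the Epsilon genes. Just inside the filter stood GstO1, at 3.08 TPM in injured and 3.70 TPM in uninjured VNCs, and just outside stood GstE8, at 0.681 TPM in injured and 1.89 TPM in uninjured VNCs. The table holds no count under 1, and whether a 1 means a read or none is unknown. GstE4 had 1 or 2 counts in every library, and GstE14, known as the ecdysone synthesis gene noppera-bo, had 1 to 3.

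GstE8, chosen after its values were seen, stood apart among the low genes. It had 11, 6, 5, 5 and 8 counts in injured libraries, against 22, 24, 14, 20 and 15 counts in uninjured libraries. All injured libraries lay below all uninjured ones. With no filter it had a log2 fold change of -1.38 ± 0.26 (adjusted p = 0.00353), and the other 12 members below the filter had adjusted p values from 0.225 to 0.997. GstE8 lies between GstE7 and GstE9 in the cluster.

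On the per-length scale the family summed to 478 ± 60.3 TPM in injured and 531 ± 27.0 TPM in uninjured VNCs (SD, n = 5 each), and the ranges overlapped. Its makeup differed between the groups. Delta genes held 52.5, 50.0, 54.5, 45.6 and 53.2% of the sum in injured libraries, against 41.9, 40.4, 43.8, 38.3 and 38.6% in uninjured libraries. Epsilon genes held 27.9, 26.6, 26.8, 23.6 and 24.0% in injured libraries, against 38.9, 39.3, 39.0, 41.4 and 40.4% in uninjured libraries. In neither class did the groups overlap, and shares of 1 sum move against each other by construction. GstD1 alone held 32.1 ± 2.21% in injured and 22.5 ± 1.33% in uninjured VNCs, and GstE2 held 6.57 ± 0.951% in injured and 11.8 ± 1.42% in uninjured VNCs. No test was made of these shares.

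**Figure D5:**
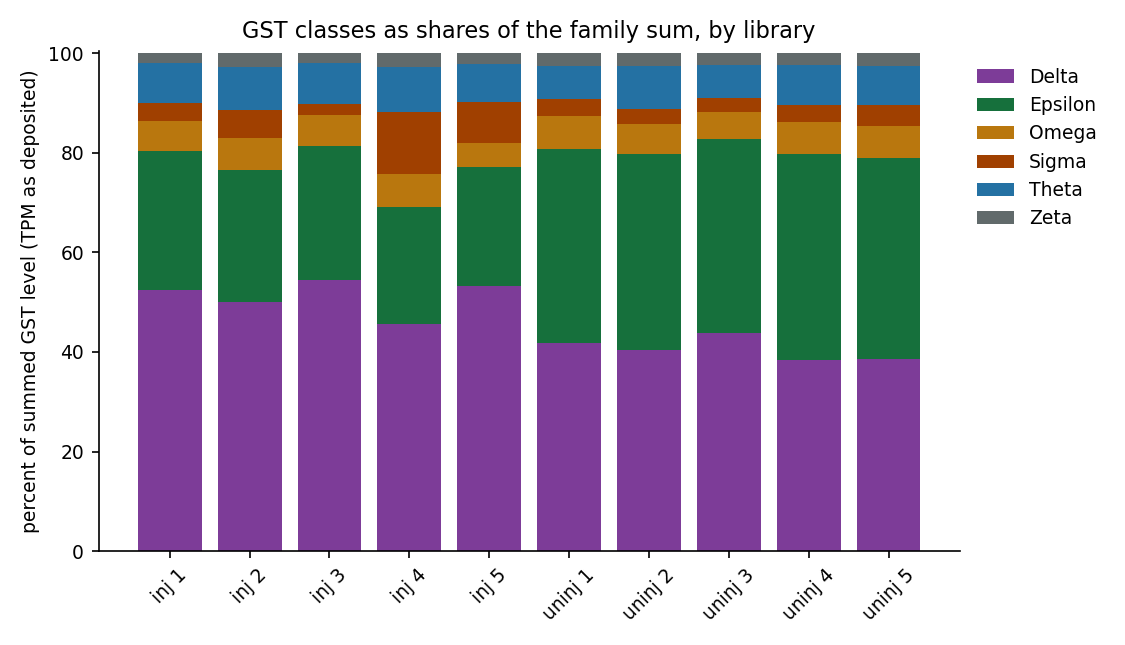
Stacked bars of the share of the summed GST level (percent of TPM as deposited, vertical axis) held by each class in each library, with injured libraries at the left and uninjured libraries at the right. The Delta share is 45.6 to 54.5% in injured and 38.3 to 43.8% in uninjured libraries, the Epsilon share is 23.6 to 27.9% in injured and 38.9 to 41.4% in uninjured libraries, and Sigma reaches 12.6% in injured library 4.

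Among the injured libraries, some members were low in the same libraries. Libraries 2 and 4 were the lowest pair for 9 of the 22 tested members, and for 15.4% of all genes tested. This pair was picked after all pairs were counted, as the one with the most members, and the other pairs had 0 to 4. No test was made. The 9 members were GstD1, GstD3, GstD9, GstE1, GstE2, GstE3, GstE6, GstE12 and GstT2. Called Epsilon genes and uncalled Delta, Epsilon and Theta genes are both among them.

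The genes that make and recycle glutathione were examined next. None of the 6 genes tested for glutathione synthesis was called with edgeR or DESeq2 (1 at an unadjusted p under 0.05), and their fitted changes ran from -0.09 to 0.22. Gclc, the catalytic subunit of glutamate-cysteine ligase, stood at 179 ± 10.8 CPM in injured and 190.1 ± 4.80 CPM in uninjured VNCs. Its modifier subunit Gclm stood at 57.4 ± 5.64 CPM in injured and 59.2 ± 3.77 CPM in uninjured VNCs.

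Of 10 tested genes for glutathione and thioredoxin reduction and NADPH supply, 2 fell, where 6.13% of all genes did. Idh, an isocitrate dehydrogenase that makes NADPH, fell to 179 ± 16.6 CPM in injured VNCs, against 311 ± 13.5 CPM in uninjured VNCs (log2 fold change -0.80 ± 0.07, adjusted p = 1.6e-06). CG31673 fell to 13.5 ± 2.14 CPM in injured VNCs, against 22.8 ± 1.83 CPM in uninjured VNCs (-0.76 ± 0.11, adjusted p = 0.000312). Trxr1, the thioredoxin reductase that in flies also serves to keep glutathione reduced, was not called (0.09 ± 0.06, adjusted p = 0.333).

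Of 10 tested genes for glutathione peroxidases, peroxiredoxins and glutaredoxins, 8 were not called, 1 was higher and 1 lower, shares close to those over all genes (7.55% higher and 6.13% lower). Prx6c, a peroxiredoxin, rose to 7.86 ± 1.03 CPM in injured VNCs, against 3.97 ± 0.860 CPM in uninjured VNCs (0.98 ± 0.18, adjusted p = 0.00131). Its paralog Prx6a fell to 4.40 ± 0.317 CPM in injured VNCs, against 6.74 ± 0.555 CPM in uninjured VNCs (-0.61 ± 0.13, adjusted p = 0.00494), a call that DESeq2 did not make.

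Of 10 tested genes for conjugate transport and glutathione turnover, 2 rose and 2 fell, where 7.55% and 6.13% of all genes did. MRP, an ABC transporter of the family that exports glutathione conjugates, rose to 304 to 449.9 CPM in injured libraries, against 213 to 232 CPM in uninjured libraries (0.79 ± 0.09, adjusted p = 2.63e-05). The ABC transporter gene rdog rose by 0.46 ± 0.08 on the log2 scale. Mdr65, the ABC transporter of the blood-brain barrier glia, fell to 78.2 ± 25.2 CPM in injured VNCs, against 283 ± 56.4 CPM in uninjured VNCs (-1.85 ± 0.20, adjusted p = 1.48e-05), and it is also 1 of the 4 glia markers that were lower. CG4829, a predicted gamma-glutamyl transpeptidase gene, fell by 0.46 on the log2 scale.

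Among 20 tested regulators known to act on stress genes, 7 rose and 1 fell, where 7.55% and 6.13% of all genes did. This list was chosen with earlier results of these data known, and the authors had already listed puc, Jra and kay as upregulated. Relish (Rel) was also among the genes of their Q-PCR assays. The count is thus a description of the list and no evidence about regulators as a group. Keap1, the inhibitor of Cnc, rose to 47.3 ± 4.37 CPM in injured VNCs, against 31.1 ± 2.36 CPM in uninjured VNCs (0.61 ± 0.08, adjusted p = 0.000118). The cnc transcript itself was not called, at 281 ± 12.3 CPM in injured and 253 ± 15.1 CPM in uninjured VNCs (0.15 ± 0.05, adjusted p = 0.0669), and neither was that of its partner maf-S (-0.25 ± 0.09, adjusted p = 0.055).

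The AP-1 genes Jra (1.10 ± 0.10) and kay (1.08 ± 0.06), the JNK phosphatase gene puc (1.14 ± 0.07), the stress-induced bZIP gene Xrp1 (0.73 ± 0.06), the JAK-STAT transcription factor Stat92E (0.33 ± 0.05) and the NF-kappaB factor Rel (3.10 ± 0.10) made up the rest of those that rose, all on the log2 scale. The forkhead factor foxo fell by 0.72 on that scale. Changes in transcript level do not measure the activity of these factors, and no promoter sequence was examined. By separate reporter imaging, the authors saw AP-1 and STAT92E reporters switched on in the VNC when front legs and wings were removed.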

How the data were processed

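RNA-seq libraries from 5 pools of injured and 5 pools of uninjured VNCs were analysed. The authors aligned single reads of 100 bases by BWA, run within GeneSifter, on Release 5.57 of the fly genome. They deposited estimated counts for each gene. These were within 0.00063 of whole numbers, to which they were rounded here. For tool versions, use of strand and reads with several matches the sources used here give nothing. The authors' deposited TPM follow the RPKM formula (reads over the length of the longest transcript and the mapped reads of the library) and served for the filter and for levels between genes. The submitters' processing notes name limma. Deposited fold changes and adjusted p-values of the authors' own comparison were not used.

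Library totals were 5146471 to 6640496 counts, with TMM factors of 0.968 to 1.036. Genes with a mean TPM above 2 in a group were tested across all 10 libraries, without covariates, by the quasi-likelihood test of edgeR 4.0.16 in R 4.3.3, with Benjamini-Hochberg adjustment over 9365 genes and a call at adjusted p under 0.01. SE is the log2 fold change over the root of F. One gene was left out because a value was not a number. Alternatives were RLE, upper-quartile or no factors, no filter or filterByExpr, DESeq2 1.42.0, limma-voom and limma 3.58.1 on log2(TPM + 0.5) or log2(TPM + 1), robust dispersions, the column number as a block, other thresholds, and each library left out. The test was tested on simulated data.

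Symbols for 13160 of 14352 gene IDs came from annotation of a newer genome build than the one counted on, used for names, arms and gene order only, and 8 list genes were matched by the gene name in the count table. The members and lists were chosen with earlier results of these data known. All 35 members are accounted for, with values per library for called members and for the leading member of each class, and of each list the called genes and up to 4 others of high CPM were open to naming. A gene of the peroxidase list that is annotated as Liprin-gamma was dropped. The cyclophilins Cyp1 and Cyp40 were kept out of the P450 genes. Only counts, medians and sums are given for P450 and UDP-glycosyltransferase genes. Precision rests on 5 pools per group.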

Additional observations from a re-analysis of the deposited data

Results flagged for a closer look

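Uninjured library 3 stood far above the other uninjured libraries for GstD2, at 2.41 CPM with the next at 1.19 CPM and the lowest at 0.838 CPM. It also stood apart for GstE3, at 25.4 CPM with the next at 22.0 CPM and the lowest at 21.6 CPM. In both cases the gap to the nearest library took up most of the range of the group (0.775 and 0.894 of it). These were the 2 such cases among 44 groups of 5 libraries examined, and chance alone flags about 1 group in 20. Without uninjured library 3, both genes were still called in the same direction.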

How the results depend on the processing

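GstD2, GstE6, GstE2, GstE12 and GstE3 were called in the same direction under every alternative but the 2-fold minimum, which left 1 member higher (GstD2) and 1 lower (GstE6). DESeq2, robust dispersions, an adjusted p under 0.05 and the column number as a replicate block each called 2 members higher, GstD1 being the second. Over the fits without 1 library, 1 to 2 members were called higher and 4 in each fit lower. Over all genes, limma on log2(TPM + 0.5) and on log2(TPM + 1) called 464 and 466 higher, an adjusted p under 0.05 called 1165 higher and 1073 lower, the 2-fold minimum called 223 higher and 212 lower, and the fits without 1 library called 531 to 873 higher and 442 to 683 lower. Without a filter on level, or with filterByExpr, GstE8 joined the lower calls. The columns share numbers across groups. Deviations of same-numbered libraries correlated at -0.142 to 0.299, with 3 of 5 over 0.1, and 2 of 5 injured libraries were closest to their own number. Such weak and mixed correlations cannot decide whether the numbers pair the samples, and the main fit did not use them. The block also called GstE9 lower (adjusted p = 0.0066).

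Signs turned for 3 genes with changes near 0. GstT2 had -0.00 with RLE factors, -0.04 with upper-quartile factors, -0.01 with library totals, -0.00 with filterByExpr, -0.06 with limma on TPM under both pseudocounts, -0.00 with the replicate block, and -0.07 to 0.09 without 1 library. GstD9 had 0.01 with no filter and -0.08 to 0.07 without 1 library, and GstT3 had -0.15 to 0.07 without 1 library. The causes were not tested. Over the members' log2 fold changes, 475 comparisons with an alternative kept their direction and side of the threshold, 9 passed it newly, 3 no longer passed it and 19 changed sign. Counts of 5 to 54 per library limit GstD2 and counts of 5 to 24 limit GstE8.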

Other observations

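The other detoxification families had more lower than higher calls. Of 45 cytochrome P450 genes tested, 2 were called higher and 20 lower, with a median log2 fold change of -0.56. Their summed level was 1346 to 2216 CPM in injured and 2150 to 2982 CPM in uninjured libraries, and the groups overlapped through library 5 of each. Some P450 genes called lower passed the filter on level only through the uninjured group. Cyp4d21 averaged 1.05 CPM in injured and 11.4 CPM in uninjured VNCs, and Cyp4d8 1.11 and 5.16 CPM. The P450 count is thus a description of the genes that passed the filter. Of 14 UDP-glycosyltransferase genes tested, 8 were called lower, with a median of -0.73 and sums of 398 to 617 CPM in injured and 681 to 771 CPM in uninjured libraries. The corresponding shares over all genes tested were 7.55% higher and 6.13% lower. Among other genes with a GST domain or name, the microsomal GST gene Mgstl fell to 6.00 ± 2.01 CPM in injured VNCs, against 11.7 ± 1.53 CPM in uninjured VNCs (-0.95 ± 0.20, edgeR adjusted p = 0.00369). ValRS, a valyl-tRNA synthetase gene, rose by 0.35 ± 0.06 on the log2 scale, and 6 of the 8 tested were not called.

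Ratios of counts between genes of a cluster within a library were chosen after their values were seen and were not tested. Several did not overlap between the groups, and a pair from each cluster is given in full. The ratio of GstE6 to GstE7 also did not overlap, while those of GstZ1 to GstZ2 and GstT1 to GstT2 did. Such ratios were not computed for other neighbouring genes, so no share over all genes stands beside these gaps. Where a called gene is set over an uncalled one, as with GstE2 and GstE1, the gap mainly repeats the call. The ratio of GstD1 to GstD9 was 2.34, 2.73, 2.41, 2.36 and 2.33 in injured libraries, against 1.79, 1.80, 1.72, 1.84 and 1.88 in uninjured libraries. Injured library 4 had a ratio of 2.36, though its GstD1 level lay among the uninjured ones. GstD1 was not called, and a ratio chosen after its values were seen adds nothing to that test. The ratio of GstE2 to GstE1 was 2.65, 2.37, 2.86, 1.93 and 2.45 in injured libraries, against 4.81, 4.75, 4.50, 3.92 and 4.55 in uninjured libraries.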
